A study of Schizosaccharomyces pombe with 6 samples.

Results

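Alternative states of 1 transcription factor gene were set against each other in fission yeast (Schizosaccharomyces pombe): a strain that carries the fkh2-S2A allele and a strain in which fkh2 is deleted (fkh2delta). The comparison was defined by the array titles and used 4 of the 6 arrays of the series, 2 for fkh2-S2A and 2 for fkh2delta. The labels place fkh2-S2A in strain CG 209 and fkh2delta in strain CG 116, and the wild type, with 2 further arrays, in strain CG 209. All cultures were growing exponentially in rich medium, and total RNA was hybridised to Affymetrix arrays. The labels do not spell out which residues the S2A allele changes, and nothing in them tells whether the 2 arrays of a genotype stand for different cultures. The p-values below therefore rest on array-to-array spread alone, which may be technical.

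Fkh2 is a forkhead transcription factor. Together with the forkhead protein Sep1 and the MADS-box protein Mbx1 it is known for the periodic transcription of genes that act in mitosis and at cytokinesis. The Mediator kinase Cdk8 is known to act on forkhead-driven transcription in this yeast. The comparison asks where an altered fkh2 allele and the loss of the gene leave different transcripts.

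Values below are log2 signals per array, and differences are fkh2-S2A minus fkh2delta on the log2 scale ± SE (the standard error that limma estimates), so that a positive difference means higher in fkh2-S2A and 1 unit is 2-fold. Adjusted p-values come from limma with the Benjamini-Hochberg method over 2936 S. pombe probe sets, with n = 2 arrays per group and a threshold of 0.05. The background level of an array, taken from probe sets without an S. pombe gene, lay between 5.17 and 5.35. Signal levels of different genes were not compared.

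The fkh2 signal itself was 7.47 and 7.76 on the fkh2-S2A arrays, against 4.34 and 4.05 on the fkh2delta arrays, and it was 7.53 and 7.39 in wild type. Both fkh2delta arrays lay below background, so fkh2 was at least 5.43-fold higher in fkh2-S2A than in fkh2delta (adjusted p = 4.30e-07). A uracil synthesis gene much used as a marker in strain construction, ura4, gave 12.83 and 12.85 in fkh2-S2A, against 5.40 and 6.17 in fkh2delta. Its difference of 7.05 ± 0.21 (adjusted p = 8.72e-08) was the highest of all probe sets. The strains therefore differ in strain name and ura4 as well as in fkh2, and what belongs to fkh2 cannot be told apart from what belongs to these. The fkh2 and ura4 signals of fkh2-S2A lay beside those of wild type, so these genes do not check which of these arrays carry the allele.

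Of the 2936 probe sets, 1441 passed the test (49.1%), 660 higher in fkh2-S2A (22.5%) and 781 lower (26.6%). Of these, 83 were at least 2-fold higher (2.83%) and 153 at least 2-fold lower (5.21%). At 4-fold or more the numbers were 9 higher and 35 lower. The median difference over all probe sets was -0.019, and the groups did not overlap for 78.2% of probe sets. For comparison, replicate arrays differed by a median of 0.13 in fkh2-S2A and 0.091 in fkh2delta, and the 2 genotypes by a median of 0.30.

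**Figure D1:**
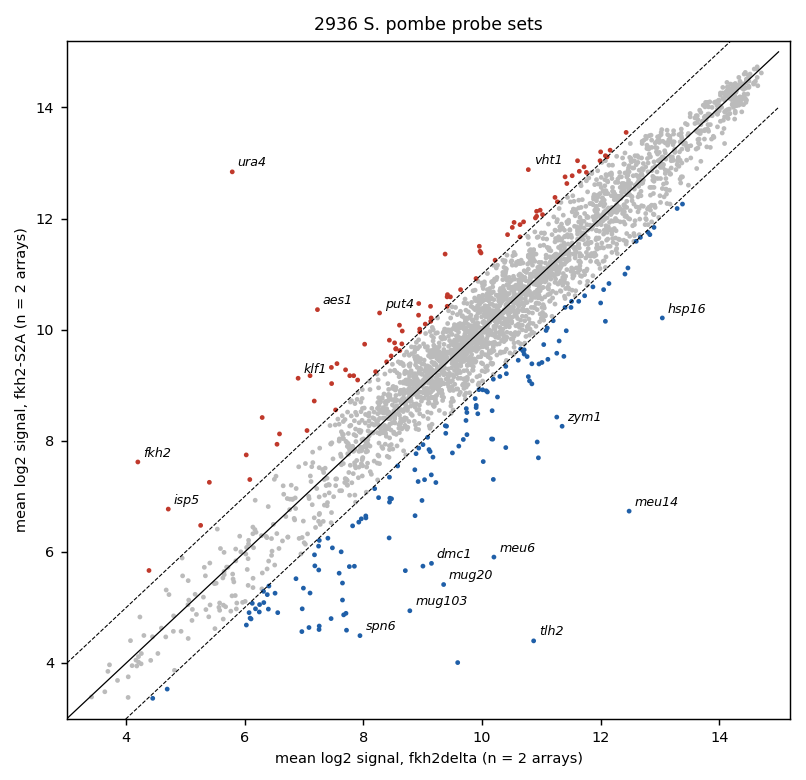
Mean log2 signal of each of 2936 S. pombe probe sets in fkh2-S2A (vertical axis) against fkh2delta (horizontal axis), each the mean of 2 arrays. Red points passed the test and were at least 2-fold higher in fkh2-S2A (83), blue points at least 2-fold lower (153), the solid line marks equal signal and the dashed lines 2-fold. The points farthest from the line are ura4 and fkh2 above it and tlh2 and meu14 below it.

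Transcripts also differed by gene length between the 2 genotypes, and RNA measures moved with the groups. Among the 725 shortest genes (145 to 1279 bases) the median difference was -0.25, with 60 genes higher and 335 lower in fkh2-S2A, and among the 725 longest it was 0.076, with 202 higher and 128 lower. Set against the average array, signal changed with each doubling of gene length by 0.070 and 0.11 in fkh2-S2A, against -0.074 and -0.061 in fkh2delta and -0.034 and -0.0095 in wild type. Control probe sets for 6 genes gave 3′ signals above their 5′ signals by a mean of 1.34 and 1.24 in fkh2-S2A, against 1.53 and 1.61 in fkh2delta and 1.27 in both wild-type arrays. The fit was therefore repeated with a curved length trend removed from each array. Its value is given beside several, but not all, of the groups that it moves. What these measures contribute to single genes was not tested.

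**Figure D2:**
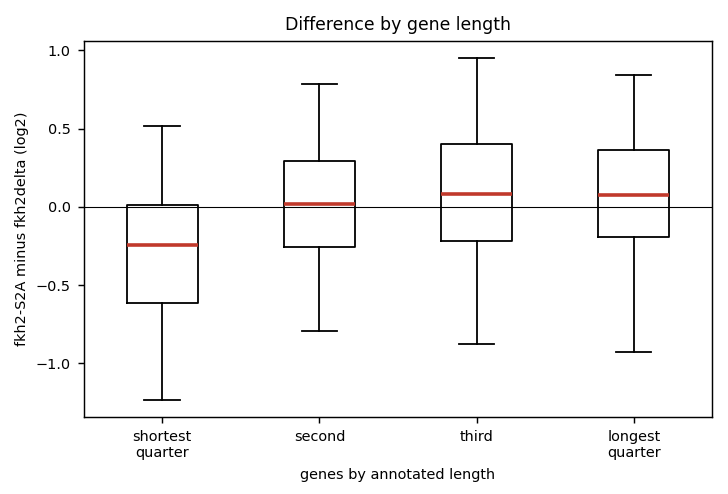
Difference in log2 signal, fkh2-S2A minus fkh2delta, for genes divided into 4 equal bins by annotated length. Boxes span the interquartile range, red lines are medians and whiskers reach the 5th and 95th percentiles. The median of the bin of shortest genes, -0.25, lies below those of the other bins.

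Among the transcription factors that act with Fkh2, sep1 and mbx1 did not pass. The sep1 signal was 10.02 and 9.93 in fkh2-S2A, against 9.74 and 9.70 in fkh2delta and 10.43 and 10.60 in wild type, a difference of 0.25 (95% interval 0.023 to 0.48, adjusted p = 0.0656). For mbx1 the difference was 0.27, with an interval from -0.060 to 0.60 (adjusted p = 0.153). The meiotic forkhead gene mei4 lay at background on both fkh2-S2A arrays and was at least 1.33-fold lower than in fkh2delta (adjusted p = 0.00529). The flocculation regulator mbx2, a MADS-box gene, was 1.22 ± 0.14 higher in fkh2-S2A (adjusted p = 1.71e-04), and above background on 1 of the 2 fkh2delta arrays. The forkhead gene fhl1 was 0.31 ± 0.09 lower, with adjusted p = 0.0214, a call that was lost when any 1 of the 4 arrays was left out. The remaining member, map1, a MADS-box gene of mating-type control, had a difference of -0.05 (adjusted p = 0.752).

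Genes transcribed in mitosis were lower in fkh2-S2A than in fkh2delta. Of 17 measured M-phase genes 13 were lower and 0 higher, against 26.6% lower and 22.5% higher over all probe sets, and their median difference was -0.79, against -0.017 over all genes. In such cultures, fewer cells at a stage and less RNA per cell cannot be told apart. The septum gene chs2, a chitin synthase family member, differed most, with 8.87 and 9.18 in fkh2-S2A, against 10.83 and 10.85 in fkh2delta (-1.81 ± 0.12, adjusted p = 8.87e-06). The wild-type arrays, at 9.74 and 9.92, lay between the mutants, with fkh2-S2A lower than wild type by a difference of -0.81 and fkh2delta higher by 1.01.

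The kinase gene ark1 (Aurora) was 1.25 ± 0.13 lower in fkh2-S2A, the contractile ring gene cdc15, an F-BAR protein, 1.07 ± 0.10 lower and the kinesin gene klp6 1.06 ± 0.10 lower. For cdc15 the arrays read 9.54 and 9.73 in fkh2-S2A, against 10.66 and 10.76 in fkh2delta, and wild type, at 9.51 and 9.45, lay beside fkh2-S2A. The Polo kinase gene plo1, which drives mitosis and septation, gave 9.28 and 9.26 in fkh2-S2A, against 9.94 and 10.24 in fkh2delta (-0.83 ± 0.12). The other lower M-phase genes were spo12 (-0.98 ± 0.11), the survivin gene bir1 (-0.96 ± 0.14), the Cdc20-type activator gene slp1 (-0.84 ± 0.10), the myosin gene myp2 (-0.79 ± 0.12), fin1 (-0.70 ± 0.11), klp5 (-0.69 ± 0.15), imp2 (-0.52 ± 0.11) and klp8 (-0.37 ± 0.10). The klp8 call was lost without fkh2delta replicate 2 and without fkh2-S2A replicate 1.

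The remaining 4 M-phase genes did not pass, and their intervals bound how far the genotypes could differ. The mitotic inducer gene cdc25 read 9.37 and 9.71 in fkh2-S2A, against 9.70 and 9.69 in fkh2delta, which overlap, with a 95% interval for the difference from -0.48 to 0.16. The anillin gene mid1 had an interval from -0.38 to 0.13, sid2 from -0.42 to 0.018 and pic1, an INCENP gene, from -0.55 to -0.021. With the curved length trend removed, sid2 and pic1 passed, for 15 lower genes of 17.

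**Figure D3:**
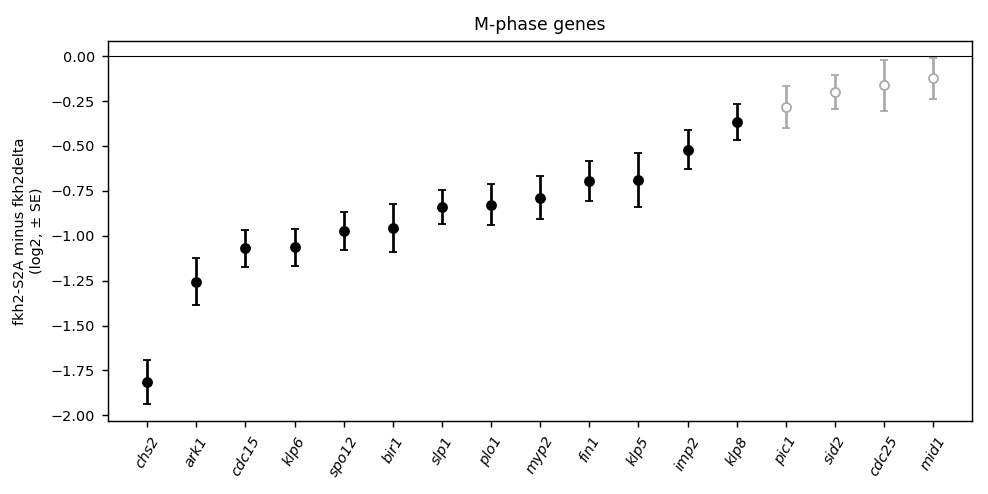
Difference in log2 signal, fkh2-S2A minus fkh2delta, with the SE of the limma fit, for 17 M-phase genes, n = 2 arrays per group. Filled points passed the test and open points did not. All points lie below 0, from chs2 at -1.81 to mid1 at -0.12.

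Most measured genes of the APC and of the kinetochore were lower in fkh2-S2A. Of 14 genes of the anaphase promoting complex (APC, the ubiquitin ligase of mitotic exit) and separase, 10 were lower and 0 higher (median -0.85). These shares were 71.4% and 0%, against 26.6% and 22.5% over all probe sets. The separase gene cut1 (-0.12, adjusted p = 0.365) did not pass, nor did cut2 (0.04, adjusted p = 0.818). The lower genes include slp1, which also stands among the M-phase genes. The deepest differences were in apc10 (-2.52 ± 0.12), at 7.76 and 8.0 in fkh2-S2A, against 10.38 and 10.41 in fkh2delta, followed by apc14 (-1.62 ± 0.09), apc15 (-1.37 ± 0.11) and apc11 (-1.16 ± 0.11). Of 38 kinetochore genes 23 were lower and 4 higher (60.5% and 10.5%), with a median of -0.44. The lowest were mis6 (-1.84 ± 0.16), nnf1 (-1.76 ± 0.14), dad1 (-1.40 ± 0.14) and mis18 (-1.39 ± 0.09). The mis6 signal was above background on only 1 of the 2 fkh2-S2A arrays, so its size is uncertain. With the curved length trend removed the kinetochore median was -0.32, with 18 lower and 3 higher. The count of higher kinetochore genes was 1 without fkh2delta replicate 2 or fkh2-S2A replicate 2, and 2 with a straight length trend removed.

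Genes of the contractile ring passed the test about as often as all probe sets. Of 19 ring genes 6 were lower (31.6%, against 26.6% over all probe sets), with the paxillin gene pxl1 (-1.72 ± 0.11) and the alpha-actinin gene ain1 (-1.12 ± 0.12) lowest, and 4 were higher (21.1%, against 22.5%), with cyk3 at 0.85 ± 0.12. Of 15 genes of the septation initiation network (SIN, the kinase cascade that starts ring constriction) 6 were lower, among them the SIN activator gene etd1 (-1.50 ± 0.12), sid1 (-0.86 ± 0.20), plo1 and cdc14 (-0.64 ± 0.11), and 1 was higher, cdc16 (0.49 ± 0.13, chosen after its value was seen), which is not called without fkh2delta replicate 2 or without fkh2-S2A replicate 2. For entry into mitosis, 5 of 16 genes were higher, among them the cyclin gene cdc13 (0.53 ± 0.11). A further 3 were lower, with the kinase gene mik1 at -0.94 ± 0.11. The entry shares were 31.25% higher and 18.75% lower, against 22.5% and 26.6% over all probe sets. Those of the SIN list were 6.67% higher and 40% lower. Without fkh2delta replicate 2, and likewise without fkh2-S2A replicate 2, the count of higher entry genes was 2, and it was 3 with a straight length trend removed.

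Many of the deepest differences below 0 were in genes known from meiosis. Over all probe sets 26.6% were lower and 22.5% higher. Of 21 early meiotic genes 14 were lower and 0 higher (66.7% and 0%, median -0.78). Of 24 genes of middle meiosis and sporulation 14 were lower and 2 higher (58.3% and 8.33%, median -0.67). The middle gene mei4 also stands among the forkhead genes. The 2 higher calls were 0 without fkh2delta replicate 1, without fkh2-S2A replicate 2 and with the curved length trend removed, and 1 without fkh2delta replicate 2 or either wild-type array. Among 109 genes named mug or meu for their induction in meiosis, 72 were lower and 10 higher (66.1% and 9.17%). Their median was -0.51, and the set shares some members with both lists. In fkh2-S2A and fkh2delta, 5 early, 2 middle and 5 mug or meu genes were not above background on any of the 4 arrays. The counts include some of these: 2 of the lower early genes, 1 of the lower middle genes, and 1 lower and 1 higher mug or meu gene.

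The forespore membrane gene meu14 read 6.75 and 6.71 in fkh2-S2A, against 12.43 and 12.54 in fkh2delta and 7.14 and 7.12 in wild type (-5.75 ± 0.09, adjusted p = 2.31e-09). The recombinase gene dmc1 read 5.57 and 6.01 in fkh2-S2A, against 8.95 and 9.34 in fkh2delta (-3.35 ± 0.17, adjusted p = 1.62e-06). In both genes the fkh2-S2A and wild-type arrays lay far below fkh2delta. Among genes of linear elements, the meiotic chromosome axes of this yeast, mug20 (-3.94 ± 0.09), rec10 (-1.54 ± 0.12) and rec25 (-1.23 ± 0.14) were lower. The gene hop1 (0.05, adjusted p = 0.756) did not pass. Of genes of meiotic DNA break formation, mde2 (-2.88 ± 0.21) and rec24 (-2.21 ± 0.16) were lower. In contrast, rec12 (-0.0088, adjusted p = 0.953), rec6 (-0.06, adjusted p = 0.764) and rec14 (0.24, adjusted p = 0.0722) did not pass. These last 3 were above background on all 4 arrays.

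Several meiotic genes lay at background on both fkh2-S2A arrays, so that only a bound can be given. The sporulation septin gene spn6 was 4.32 and 4.66 in fkh2-S2A, against 7.73 and 8.16 in fkh2delta, at least 6.55-fold lower (adjusted p = 9.36e-07). The bound was 11.7-fold for mug103 (adjusted p = 3.19e-07), 5.6-fold for the RNA-binding protein gene crp79 (adjusted p = 5.95e-07) and 5.42-fold for the spore wall gene isp3 (adjusted p = 2.46e-06). The other deep differences were meu6 (-4.30 ± 0.14), cid11 (-3.26 ± 0.10), a nucleotidyltransferase family gene, meu25 (-3.25 ± 0.10), mug133 (-3.04 ± 0.13) and another sporulation septin gene, spn7 (-2.40 ± 0.17). These 5 genes were above background on all 4 arrays. Among other septin genes of the middle list, spn2 was lower (-0.78 ± 0.11) and spn5 did not pass (0.24 ± 0.15, adjusted p = 0.212).

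The gene mug135 (-2.95 ± 0.13) lies 2 genes from ura4 in gene order and is the nearest measured gene on that side. Its arrays read 8.04 and 7.92 in fkh2-S2A, against 10.96 and 10.90 in fkh2delta. On the other side of ura4 the nearest measured gene was alg11, with a difference of 0.33 ± 0.11 (adjusted p = 0.0321). The measured genes nearest to fkh2 on one side were rps3 (0.04 ± 0.09, adjusted p = 0.748) and ptf2 (-0.17 ± 0.10, adjusted p = 0.166), and on the other erg24 (0.28 ± 0.10, adjusted p = 0.0441).

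The lists of the switch into meiosis and of the mating pathway had medians of -0.26 and -0.17. Of 10 genes of the Mei2 switch and of meiotic mRNA elimination 4 were lower (40%, against 26.6% over all probe sets) and 0 higher. The lowest was crp79, already given above with its bound. The call of rrp6 (-0.58 ± 0.21, adjusted p = 0.0494) was not kept with quantile normalization, among other settings. The gene mei2, which encodes the RNA-binding inducer of meiosis, read 6.94 and 6.99 in fkh2-S2A, against 8.48 and 8.41 in fkh2delta and 6.09 and 6.42 in wild type (-1.48 ± 0.12). Of 18 pheromone and mating genes 7 were lower, with the exchange factor gene ste6 at -1.72 ± 0.11 and fus1 at least 2.13-fold lower (adjusted p = 5.54e-05). Another 4 were higher, among them the mating regulator genes rgs1 (0.57 ± 0.11) and ste11 (0.55 ± 0.12). The shares were 38.9% lower and 22.2% higher, against 26.6% and 22.5% over all probe sets. The higher count was 2 without fkh2delta replicate 2.

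Of 7 M-cell genes 2 were lower, the pheromone gene mfm3 and the protease gene sxa2 (-0.42 ± 0.13), and of 3 P-cell genes 1 was lower, map4 (-0.93 ± 0.10). These lower shares, 28.6% and 33.3%, stand against 26.6% over all probe sets. The mfm3 value of -0.83 ± 0.15 was -0.29 with the curved length trend removed and was not called with either length trend removed. The sxa2 call was lost without fkh2delta replicate 1, fkh2delta replicate 2 or fkh2-S2A replicate 1.

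The deepest single difference was in tlh2, a subtelomeric helicase gene. It read 4.30 and 4.50 in fkh2-S2A, below background, against 10.70 and 11.05 in fkh2delta, at least 50.1-fold lower (adjusted p = 1.54e-08). Near-identical copies of this gene exist, and its 4 probe sets differed by -6.48, -5.58, -1.99 and -0.23, so the size is uncertain. Among the wtf genes, a family with similar copies that includes spore killers, wtf15 went the other way, at 8.20 and 8.63 in fkh2-S2A, against 6.45 and 6.13 in fkh2delta (2.13 ± 0.16, adjusted p = 1.74e-05).

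**Figure D4:**
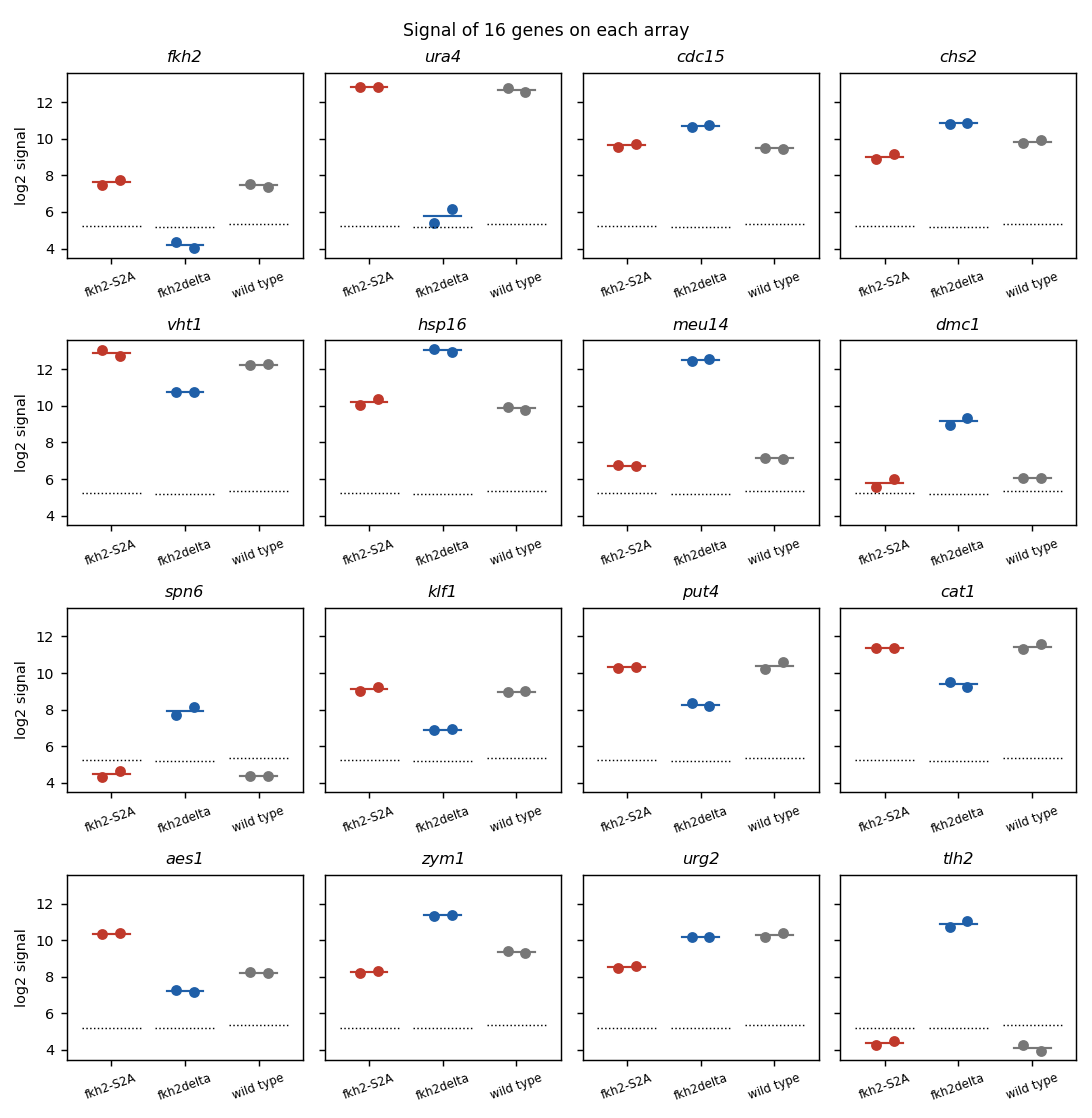
Log2 signal of 16 genes on each array, with fkh2-S2A in red, fkh2delta in blue and wild type in grey. Points are single arrays, solid lines the mean of 2 arrays and dotted lines the mean background level of the group. In meu14, dmc1, spn6 and tlh2 the 2 fkh2delta arrays stand above all others, and in klf1, put4 and cat1 below all others, while in aes1 and zym1 the wild-type arrays lie between the mutants.

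Most measured amino acid transporter genes were higher in fkh2-S2A. Of 8 amino acid transporter genes 6 were higher and 1 lower (median 0.95). The permease gene put4 read 10.27 and 10.34 in fkh2-S2A, against 8.35 and 8.19 in fkh2delta and 10.20 and 10.58 in wild type (2.03 ± 0.13, adjusted p = 8.06e-06). The permease genes cat1 (1.98 ± 0.13) and per1 (1.28 ± 0.12) were also higher, and isp5 was at least 3.02-fold higher, since it was not above background in fkh2delta (adjusted p = 8.87e-06). The exception was meu22, lower by a difference of -1.25 (chosen after its value was seen).

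The biotin transporter gene vht1 read 13.04 and 12.72 in fkh2-S2A, against 10.78 on both fkh2delta arrays (2.10 ± 0.12, adjusted p = 3.42e-06). Wild type, at 12.21 and 12.27, lay below fkh2-S2A and above fkh2delta. For carbon metabolism, 10 of 24 genes of hexose transport and of glycerol and alcohol metabolism were higher and 3 lower. These shares were 41.7% and 12.5%, against 22.5% and 26.6% over all probe sets. The dihydroxyacetone kinase gene dak2 (1.72 ± 0.16), the alcohol dehydrogenase gene adh4 (1.45 ± 0.14) and the glycerol-phosphate dehydrogenase gene gut2 (1.17 ± 0.19) were higher, and the hexose transporter family gene ght6 was at least 1.82-fold lower (adjusted p = 5.48e-05). The 3 lower calls were 1 without fkh2delta replicate 2 and 1 without fkh2-S2A replicate 2.

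Of 19 iron, zinc and copper genes 6 were higher (31.6%, against 22.5% over all probe sets), led by the siderophore synthesis gene sib2 (1.84 ± 0.12) and the copper-sensing factor gene cuf1 (0.91 ± 0.11), and 6 were lower (31.6%, against 26.6%). These shares are near those over all probe sets, and no direction is given for the list. Without fkh2delta replicate 1 the counts were 3 higher and 3 lower, and the lower count was 3 without fkh2delta replicate 2 and 2 without fkh2-S2A replicate 2. The metallothionein gene zym1 was the lowest, at 8.19 and 8.33 in fkh2-S2A, against 11.31 and 11.39 in fkh2delta (-3.09 ± 0.10, adjusted p = 9.55e-08). Wild type read 9.42 and 9.31, above fkh2-S2A and below fkh2delta. The siderophore transporter gene str3 (-1.02 ± 0.30, adjusted p = 0.0193) was not called without fkh2delta replicate 2 or fkh2-S2A replicate 2, and its fkh2-S2A arrays, 8.58 and 7.54, lay far apart.

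Of 26 stress and oxidative defence genes 10 were higher (38.5%, against 22.5% over all probe sets) and 5 lower (19.2%, against 26.6%). The catalase gene ctt1 (1.39 ± 0.14) and rds1 (1.47 ± 0.12) were highest and zym1 and lsd90 (-1.32 ± 0.17) lowest. Without fkh2delta replicate 2 the higher count was 6, and with a mean-variance trend the lower count was 8. In lsd90 the fkh2-S2A arrays, 7.55 and 8.06, lay below both fkh2delta (9.24 and 9.01) and wild type (9.32 and 9.54). Of 24 chaperone genes 20.8% were lower and 29.2% higher, against 26.6% and 22.5% over all probe sets. The 5 lower genes included the small heat-shock gene hsp16, at 10.05 and 10.37 in fkh2-S2A, against 13.12 and 12.96 in fkh2delta (-2.83 ± 0.13, adjusted p = 9.14e-07), and the Hsp70 gene ssa1 (-1.64 ± 0.14). A further 7 were higher, with ssc1, the mitochondrial Hsp70 gene, at 0.65 ± 0.10, a count that ranged from 1 (without fkh2delta replicate 2, or with the curved length trend removed) to 9 over 19 other settings. It was 2 without fkh2delta replicate 1 and 4 without either fkh2-S2A array, and the lower count was 3 without fkh2delta replicate 2.

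Flocculation genes, which act in cell adhesion, were higher as well: 6 of 8 were higher and 0 lower (median 0.71). These shares were 75% and 0%, against 22.5% and 26.6% over all probe sets. The regulator gene cbf12 was 1.54 ± 0.12 higher and the flocculin gene pfl8 1.40 ± 0.15 higher. The zinc-finger factor gene klf1, known from long-term quiescence, read 9.04 and 9.21 in fkh2-S2A, against 6.88 and 6.92 in fkh2delta and 8.96 and 9.0 in wild type (2.23 ± 0.10, adjusted p = 8.07e-07). The MAP kinase gene pmk1 of the cell integrity pathway was 1.09 ± 0.12 higher.

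Several marker genes of strain construction were higher in fkh2-S2A. Of 8 such genes, ura4 included, 6 were higher and 0 lower. These shares were 75% and 0%, against 22.5% and 26.6% over all probe sets. After ura4 came ade6 at 1.23 ± 0.11, lys1 at 1.18 ± 0.11 and his3 at 0.98 ± 0.09. The differences of his5 (0.02, adjusted p = 0.878) and his7 (0.12, adjusted p = 0.292) did not pass. Of the uracil-regulated genes, urg1 and urg2 were lower and urg3 did not pass. The urg2 signal was 8.50 and 8.58 in fkh2-S2A, against 10.18 and 10.16 in fkh2delta and 10.16 and 10.38 in wild type (-1.63 ± 0.11, adjusted p = 7.98e-06). Thus fkh2delta lay beside wild type in urg2, and fkh2-S2A below both. For urg1 the difference was -1.11 ± 0.11, again with fkh2-S2A lowest.

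Of the 9 measured uracil genes 2 were higher, ura4 and ura2 (0.50 ± 0.10), 3 were lower, urg1, urg2 and the uracil permease gene fur4 (-0.36 ± 0.11, lost without either fkh2delta array or fkh2-S2A replicate 2), and 4 did not pass. The 95% intervals of these 4 were as follows: ura3 from -0.23 to 0.18, ura5 from -0.14 to 0.27, ura1 from -0.12 to 0.32 and urg3 from -0.089 to 0.44. The shares of the uracil list were 22.2% higher and 33.3% lower, against 22.5% and 26.6% over all probe sets.

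Wild type lay between the mutants in aes1. It read 10.32 and 10.39 in fkh2-S2A, against 7.27 and 7.17 in fkh2delta and 8.27 and 8.19 in wild type. The difference between the mutants was 3.13 ± 0.09 (adjusted p = 8.72e-08), with fkh2-S2A 2.13 ± 0.09 above wild type and fkh2delta lower than it by a difference of -1.01 ± 0.09. The share of probe sets called against wild type was 33.3% in fkh2-S2A and 64% in fkh2delta. The remaining genes among the 15 highest were alr2 (2.07 ± 0.22), the GINS replication gene psf2 (1.86 ± 0.11), the galactosyltransferase family gene gmh1 (1.85 ± 0.19) and mmf2 (1.72 ± 0.11).

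The 4 measured genes of the Mediator kinase module differed little. The cyclin gene srb11 was 0.57 ± 0.10 lower in fkh2-S2A (adjusted p = 0.00195). The Cdk8 kinase gene srb10 had a difference of -0.11 with an interval from -0.39 to 0.16, med13 of -0.12 (-0.39 to 0.14) and srb8 of -0.28 (-0.54 to -0.021), and these 3 did not pass. The count was 2 with either length trend removed or without fkh2delta replicate 1. Of 16 other Mediator genes 9 were lower and 1 higher, with med31 lowest (-0.80 ± 0.09). These shares were 56.25% and 6.25%, against 26.6% and 22.5% over all probe sets. With the curved length trend removed med31 was at -0.55, and srb6, at -0.85, lay below it.

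Most measured mitochondrial ribosome genes were lower in fkh2-S2A (59.6%, against 26.6% over all probe sets), and 10.6% were higher, against 22.5%. Of 47 mitochondrial ribosome genes 28 were lower and 5 higher (median -0.47), with mrp17 at 7.87 and 8.19 in fkh2-S2A, against 10.13 and 10.24 in fkh2delta (-2.16 ± 0.12). These genes are short, with a median length of 1067 bases against 1878 over all genes, and with the curved length trend removed the median was -0.33, with 23 lower and 6 higher. Of 118 cytosolic ribosomal protein genes 6 were higher and 15 lower (median -0.011), and this count turned with the length trend: 76 higher and 1 lower with the curved trend removed (median 0.32). No direction is therefore given for the cytosolic ribosomal proteins.

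Of 30 ribosome biogenesis genes 9 were higher, with the GTPase gene nog1 (1.21 ± 0.11) and the nucleolin gene gar2 (0.97 ± 0.10) highest, and 5 were lower, a count that was 3 without fkh2delta replicate 2 and 2 without fkh2-S2A replicate 2. The biogenesis shares were 30% higher and 16.7% lower, against 22.5% and 26.6% over all probe sets. Of 41 respiratory genes 12 were higher (29.3%, against 22.5%), such as cox5 (0.93 ± 0.10) and sdh1 (0.91 ± 0.12), and 11 lower (26.8%, against 26.6%), such as cox12 (-1.01 ± 0.13). The lower count was 6 with the curved and 7 with a straight length trend removed, and the higher count was 4 without fkh2delta replicate 2 and 7 without fkh2-S2A replicate 2. Of 28 nuclear pore and transport genes 13 were higher, with nup85 at 0.70 ± 0.10, and 3 were lower. These shares were 46.4% and 10.7%, against 22.5% and 26.6% over all probe sets. The higher count was 5 with a straight length trend removed, and 8, 8 and 7 without fkh2delta replicate 1, fkh2delta replicate 2 and fkh2-S2A replicate 2.

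Genes of the G1/S wave under MBF, the factor that drives S-phase transcription, had no common direction: of 20 measured, 4 were higher, with cdt2 at 0.82 ± 0.12, and 6 lower, with the polymerase gene pol1 at -0.88 ± 0.14 (median 0.0019). The MBF shares, 20% higher and 30% lower, were near those over all probe sets, 22.5% and 26.6%. The pol1 arrays read 8.51 and 8.47 in fkh2-S2A, against 9.16 and 9.58 in fkh2delta, and both mutants lay above wild type, at 7.42 and 7.25. Of 40 replication genes 7 were higher (17.5%, against 22.5% over all probe sets), with psf2 and mcm2 (1.07 ± 0.13) highest, and 11 lower (27.5%, against 26.6%), with orc6 lowest (-1.25 ± 0.11). Without fkh2delta replicate 2 these counts were 4 and 6, and without fkh2-S2A replicate 2 the higher count was 4.

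The remaining lists are given as counts, several of them near the shares of 22.5% higher and 26.6% lower over all probe sets. In the kinesin and myosin list and in the polarity list, 1 lower gene each was above background on none of the 4 arrays. Of 15 other transcription factor genes 7 were higher, with hsr1 (0.81 ± 0.13) after klf1, and 1 lower, the sterol regulator gene sre1 (-0.59 ± 0.12); the higher count was 4 without replicate 2 of either genotype or with the curved length trend removed. Of 25 cell wall genes 4 were higher and 6 lower, among them the glucan synthase gene bgs2 (-1.36 ± 0.14), and the lower count was 10 with a straight length trend removed. Of 14 kinesin and myosin genes 7 were lower and 2 higher, with 4 lower without fkh2delta replicate 2 or fkh2-S2A replicate 1, and 1 higher without either fkh2delta array or fkh2-S2A replicate 2. Of 20 cell polarity genes 6 were higher, such as tea1 (0.52 ± 0.11), and 2 lower, counts that ran from 3 to 8 and from 0 to 2 over 19 settings. Of 25 cohesin, condensin and related repair genes 6 were lower and 0 higher, with 0 to 2 higher over 19 settings and 3 lower without replicate 2 of either genotype. Of 27 proteasome genes 7 were lower, with pup2 lowest (-0.71 ± 0.10), and 3 higher, and without fkh2delta replicate 2 or fkh2-S2A replicate 1 the lower count was 3. It was 4 without either other array of these genotypes, where the higher count was 1. Of 10 histone genes 2 were lower, hhf2 and hhf3, and 1 higher, pht1. The lower count lay between 0 and 8 over 19 settings, and the genes have near-identical copies. The calls of hhf2 (-0.42 ± 0.11) and hhf3 (-0.37 ± 0.09) were lost with either length trend removed. With the curved trend removed their differences were -0.13 and 0.0051. Of 17 subtelomeric and wtf genes 9 were lower and 2 higher, with 5 higher without fkh2-S2A replicate 2.

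**Figure D5:**
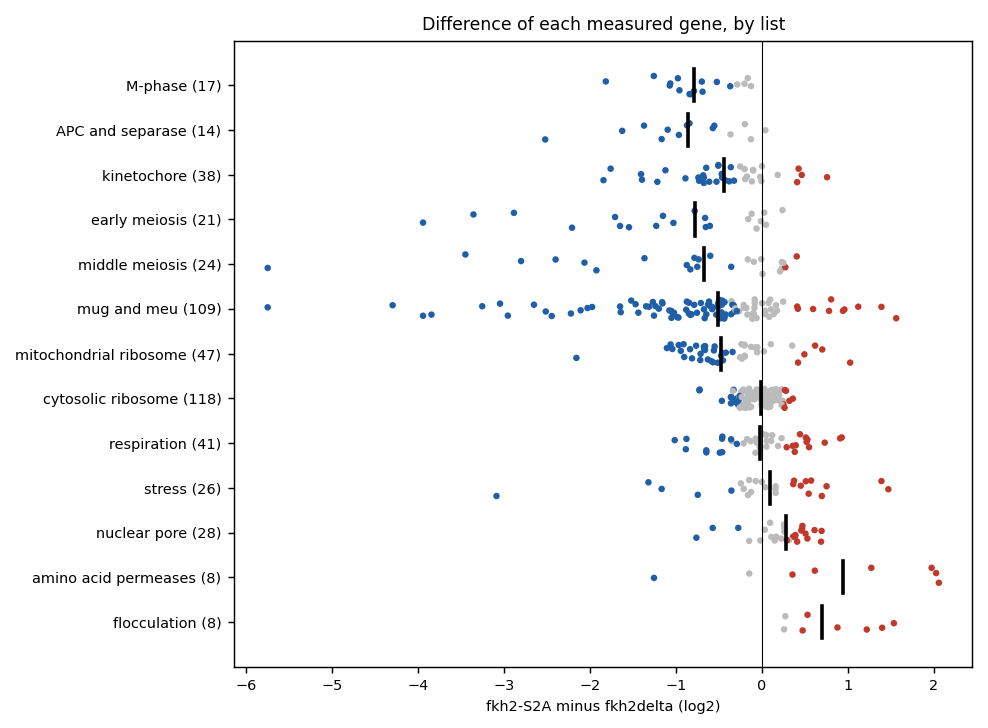
Difference in log2 signal, fkh2-S2A minus fkh2delta, of every measured gene in 13 lists, with the number of genes in brackets. Each point is a gene, red where called higher in fkh2-S2A, blue where called lower and grey where not called, black bars are list medians and vertical scatter within a list is arbitrary. Medians run from -0.85 for the APC and separase to 0.95 for the amino acid permeases.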

How the data were processed

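Values were taken as deposited: per the labels, 6 arrays of biotin-labelled total RNA, with 1 log2 value per probe set and array made by the authors. Base 2 was inferred from the range, and the sources used here do not give how probes were summarised and normalized. Probe sets were named through the platform annotation and RefSeq genes of assembly ASM294v3 (names, gene order and length only). Of 10928 probe sets, 2936 had S. pombe genes (2917 with 1 gene, 19 with several), for 2899 genes; 110 symbols were updated, 213 probe sets were controls and 5177 stayed unnamed. For a gene with several probe sets (14 genes) the one with the highest mean stood for it.

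The background level was the 95th percentile of 2601 annotated probe sets with no S. pombe gene. Where neither array of a group exceeded it, the fold is a bound: the brighter group's mean over the dimmer group's, with dim values raised to their array's background.

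limma 3.58.1 in R 4.3.3 was fitted to all 6 arrays with group as the only term (3 residual and 5.73 prior degrees of freedom), two-sided. On simulated data for this comparison over 2936 probe sets the steps recovered 83.6% of differences of 0.5 log2 and 100% of those of 1 and of 2, with 4.06% false calls. In that simulation 67, 67 and 66 probe sets were changed by these sizes, far fewer than the 1441 called here. Its noise was independent between probe sets and arrays and held no length trend, so these rates do not cover such trends. The members and the 41 gene lists were chosen with earlier results of these data known, and lists were described by counts and medians with no set test. The older names aap1 and sod2, now other genes' synonyms, were left out of the lists, and 1 list (splicing) that took in an unrelated gene is not reported here. Of the remaining lists and named genes, some are not reported here. Named genes were the 15 highest and 15 deepest differences among genes with 1 gene per probe set, adjusted p below 0.05, no overlap and 1 of the 2 groups above background on both arrays; all forkhead and MADS-box, M-phase, Cdk8 module and uracil genes; and, from the remaining lists, the 4 genes with the highest absolute difference. No pseudocount was needed. The 17 other settings and 2 chosen after seeing the data are given in the closing section. Same-numbered arrays were not paired: their deviations from group means correlated between -0.27 and -0.085 across groups. Promoter motifs were not analysed here, since no promoter sequences were used.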

Additional observations from a re-analysis of the deposited data

Results flagged for a closer look

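Signal was also found in probe sets that carry no gene name here and enter no comparison above. Of 5177 such probe sets, 2169 were above background on both arrays of fkh2-S2A or of fkh2delta. In a fit over all probe sets except controls, 95 of these 2169 were at least 2-fold higher in fkh2-S2A and 59 at least 2-fold lower (limma, Benjamini-Hochberg adjusted p below 0.05). Among the 2936 named probe sets, at any signal level and in the main fit, 83 were 2-fold higher (2.83%) and 153 lower (5.21%). More were thus higher than lower among the unnamed probe sets, and more lower than higher among the named ones. Of the 2601 annotated probe sets that define the background, 126 were above background in the same way. That number is largely set by the definition, since the level is the 95th percentile of these probe sets, and it is no independent control.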

How the results depend on the processing

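The fit was repeated under 17 other settings and 2 chosen after seeing the data, the curved length trend and a crossed pairing. Leaving out an array of the 2 genotypes leaves 1 array in that group, which is then assumed to vary like the others. The number of probe sets past the threshold, 1441, ran from 980 without fkh2delta replicate 2 to 1633 with the crossed replicate block (fkh2delta replicate 1 with fkh2-S2A replicate 2), was 1350 with the replicate block and changed by no more than 1.5 times in any of the 19 settings, as did the counts of higher and lower, of 2-fold higher and 2-fold lower, and of lower M-phase genes (12 to 15 of 17). The replicate block changed no call of a named gene, but gave 3 higher chaperone genes in place of 7. Of 161 named genes called, 143 kept their call and direction in all 19 settings. Among named genes, a called difference changed sign for hhf3, at 0.0051 and not called with the curved length trend removed, and an uncalled one became a call of the other sign for map2, at 0.29 with the same trend removed. Other uncalled differences near 0 also crossed it in some settings, among them ura1, cdc25 and map1, without being called. Precision is limited by having 2 arrays per genotype.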
